A study of Mus musculus with 6 samples.

Results

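The solute carriers described here are the mouse genes whose symbol is Slc followed by a digit and that were listed for both regions of the jejunum. Slc51a, Slc51b and Slc15a1 were left out. This gave 99 of the 5674 genes shared by the regions. By the main substrate of their family they comprised 17 carriers of amino acids, 16 mitochondrial carriers, 13 of zinc and other metals, 11 of inorganic ions and acid-base equivalents, 8 of sugars, 8 of nucleosides and nucleotide sugars, 6 of organic anions and monocarboxylates, 6 of organic cations and drugs, 5 of lipids, bile acids and choline, 3 of vitamins and 5 orphan or other carriers. Slc23a4 was counted with the vitamin carriers by its family, although its own substrate is uncertain. Slc9a3r1 carries an Slc symbol but encodes NHERF1, a scaffold that anchors transporters beneath the brush border, and was kept apart. A further 25 Slc genes were listed for the anterior samples only, among them the basolateral glucose carrier Slc2a2, and 7 for the posterior samples only, among them the nucleoside carrier Slc28a2. These were not analysed here.

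Solute carriers move nutrients, ions and metabolites across membranes, by facilitated diffusion or by coupling to a sodium, proton or anion gradient. In the small intestine, absorptive enterocytes take up sugars, amino acids, fatty acids, vitamins and minerals through carriers of the apical brush border and release them through a second set on the basolateral side. Crypt cells are known for the basolateral sodium-potassium-chloride cotransporter that feeds chloride secretion, and goblet and enteroendocrine cells secrete mucus and hormones. Cells mature as they migrate from the crypt towards the villus tip.

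Single epithelial cells were profiled from the jejunum of 3 mice of a mixed CD-1 and C57BL/6 background at 120 days of age. For each mouse, the small intestine was divided into 12 pieces, and piece 3 served as anterior and piece 7 as posterior jejunum, so the 6 samples (3 per region) share animals. No genotype, transgene or treatment is given for any sample, and the series concerns ID2 and enteroendocrine differentiation. EpCAM-positive, DAPI-negative cells from villus and crypt fractions were mixed in equal parts, so the proportions of classes are not read as those of the tissue. Libraries were made with MARS-seq, which counts each messenger RNA once at its 3′ end by a unique molecular identifier (UMI). Levels are given as UMIs per 10000 UMIs of the cell (CP10K), averaged over the cells of a class in a sample. Because a molecule is counted once, this scale does not grow with gene length.

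The files held 2043 cells. Their UMIs numbered 1624320 to 3141654 per sample in the 5674 shared genes, and 1640578 to 3157105 in all listed genes. No cell name and no identical set of counts occurred in both regions. Clustering without any Slc gene gave 677 enterocyte-like, 632 goblet-like, 209 crypt progenitor-like, 116 enteroendocrine-like and 176 Paneth-like cells, and 233 cells stayed unnamed. Mouse 1 differed in its make-up, with 30 enterocyte-like of 568 anterior and 13 of 511 posterior cells. In mouse 2 they were 104 of 198 and 213 of 280, and in mouse 3 160 of 262 and 157 of 224. Summed over 12 of 12 markers, enterocyte-like cells held 949.5 to 1432 CP10K of enterocyte genes per sample, against 74.2 to 121 in progenitor-like and 131 to 204 in goblet-like cells. Goblet markers (10 of 10) summed to 2863 to 4603 CP10K in goblet-like cells and 44.7 to 225 in enterocyte-like cells. Of 17 enteroendocrine markers, the 6 listed in both regions summed to 947 to 2243 CP10K in enteroendocrine-like cells. The tables held 1 of 13 T cell, 0 of 8 B cell, 0 of 8 myeloid and 1 of 10 stromal markers, so such cells could be checked only through Cd8a, at most 0.423 CP10K in enterocyte-like cells, and Pecam1, at most 1.58. Depth and RNA composition moved with class. The median UMIs per cell was 10509 to 15672 in progenitor-like and 1689.5 to 11000 in enterocyte-like cells, and ribosomal protein genes took 23.4% to 27.7% and 2.64% to 5.15% of their UMIs.

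Upstream sequences of 4 carriers are shown because these genes mark the main class patterns described below. Slc5a1, Slc27a4 and Slc3a1 were raised in enterocyte-like cells, and Slc12a8 in goblet-like cells. The genes were picked after their values were seen. Each is the 250 bases before the RefSeq start on GRCm38.p6, on the transcribed strand from 5′ to 3′, and none overlapped an annotated exon of GENCODE vM21. Slc5a1 lies at chr5:33103969-33104218, Slc27a4 at chr2:29802384-29802633, Slc3a1 at chr17:85028097-85028346 and Slc12a8 at chr16:33517078-33517327, all on the plus strand, and Slc12a8 has 3 listed starts, of which the first is shown. Capitals mark matches to letters searched on both strands.
Slc5a1: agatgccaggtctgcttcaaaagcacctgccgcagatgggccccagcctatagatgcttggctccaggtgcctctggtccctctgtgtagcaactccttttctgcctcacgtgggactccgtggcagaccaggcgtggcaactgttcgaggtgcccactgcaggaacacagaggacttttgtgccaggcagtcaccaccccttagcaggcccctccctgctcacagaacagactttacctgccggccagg
Slc27a4: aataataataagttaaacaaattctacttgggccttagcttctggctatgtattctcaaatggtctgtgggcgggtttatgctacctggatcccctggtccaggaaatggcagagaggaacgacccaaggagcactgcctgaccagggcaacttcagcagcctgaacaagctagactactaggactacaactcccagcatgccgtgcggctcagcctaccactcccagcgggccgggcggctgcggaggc
Slc3a1: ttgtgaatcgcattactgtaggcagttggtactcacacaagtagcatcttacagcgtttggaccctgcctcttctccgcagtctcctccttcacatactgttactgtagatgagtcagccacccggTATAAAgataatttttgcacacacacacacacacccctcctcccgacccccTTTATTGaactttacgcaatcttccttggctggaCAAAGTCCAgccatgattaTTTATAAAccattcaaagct
Slc12a8: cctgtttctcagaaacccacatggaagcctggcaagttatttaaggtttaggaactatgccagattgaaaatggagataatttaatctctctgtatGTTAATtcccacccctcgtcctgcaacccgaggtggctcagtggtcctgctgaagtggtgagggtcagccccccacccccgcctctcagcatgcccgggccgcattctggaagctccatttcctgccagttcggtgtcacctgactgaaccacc
For HNF4 the letters searched were CAAAGTCCA. For HNF1, another hepatocyte nuclear factor, they were GTTAAT. For the intestinal CDX factors they were TTTATNG. For the GATA factors they were GATAAG. For the TATA box of core promoters they were TATAAA, which can overlap the CDX letters. The Slc3a1 sequence held an HNF4 match starting 39 bases before the start, a CDX match at 73 and TATA matches at 124, 20 and 18, the last pair overlapping. The Slc12a8 sequence held an HNF1 match at 154, and the other 2 sequences held none of these letters. RefSeq promoters were found for 78 of the 99 carriers, with 101 starts. HNF4 letters occurred in 0.99% of these and 0.384% of all 32851 promoters, HNF1 in 7.92% and 6.43%, CDX in 4.95% and 9.81%, GATA in 6.93% and 6.55%, and TATA in 5.94% and 12.4%. These matches are descriptions of letters and not binding sites.

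The 99 genes together took a larger share of the UMIs of the shared genes in enterocyte-like cells than in the other classes. They made up 2.04% of UMIs there (1.89% to 2.17% over 6 samples), against 0.804% in progenitor-like cells (0.723% to 0.836%) and 0.760% in goblet-like cells (0.683% to 0.854%). Enteroendocrine-like cells held 1.04% and Paneth-like cells 1.43% (1.16% to 1.71%), in 5 samples each. An unnamed cluster of 195 cells led by the gene Reg3g held 1.27%. The ranges of enterocyte-like and of progenitor-like or goblet-like samples did not overlap. Amino acid carriers summed to 35.4 ± 6.72 CP10K in enterocyte-like cells, 8.79 ± 1.23 in progenitor-like cells and 11.6 ± 4.44 in goblet-like cells (SD, n = 6). Sugar carriers summed to 19.1 ± 5.30, 2.82 ± 0.355 and 5.45 ± 1.63 CP10K in the same order, and vitamin carriers to 7.18 ± 2.50, 0.515 ± 0.141 and 0.637 ± 0.239. Mitochondrial carriers were the largest group in each of these classes and were spread differently. They summed to 48.8 ± 7.79 CP10K in enterocyte-like and 41.2 ± 3.11 in progenitor-like cells, with overlapping ranges, and to 20.1 ± 4.36 in goblet-like cells.

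**Figure D1:**
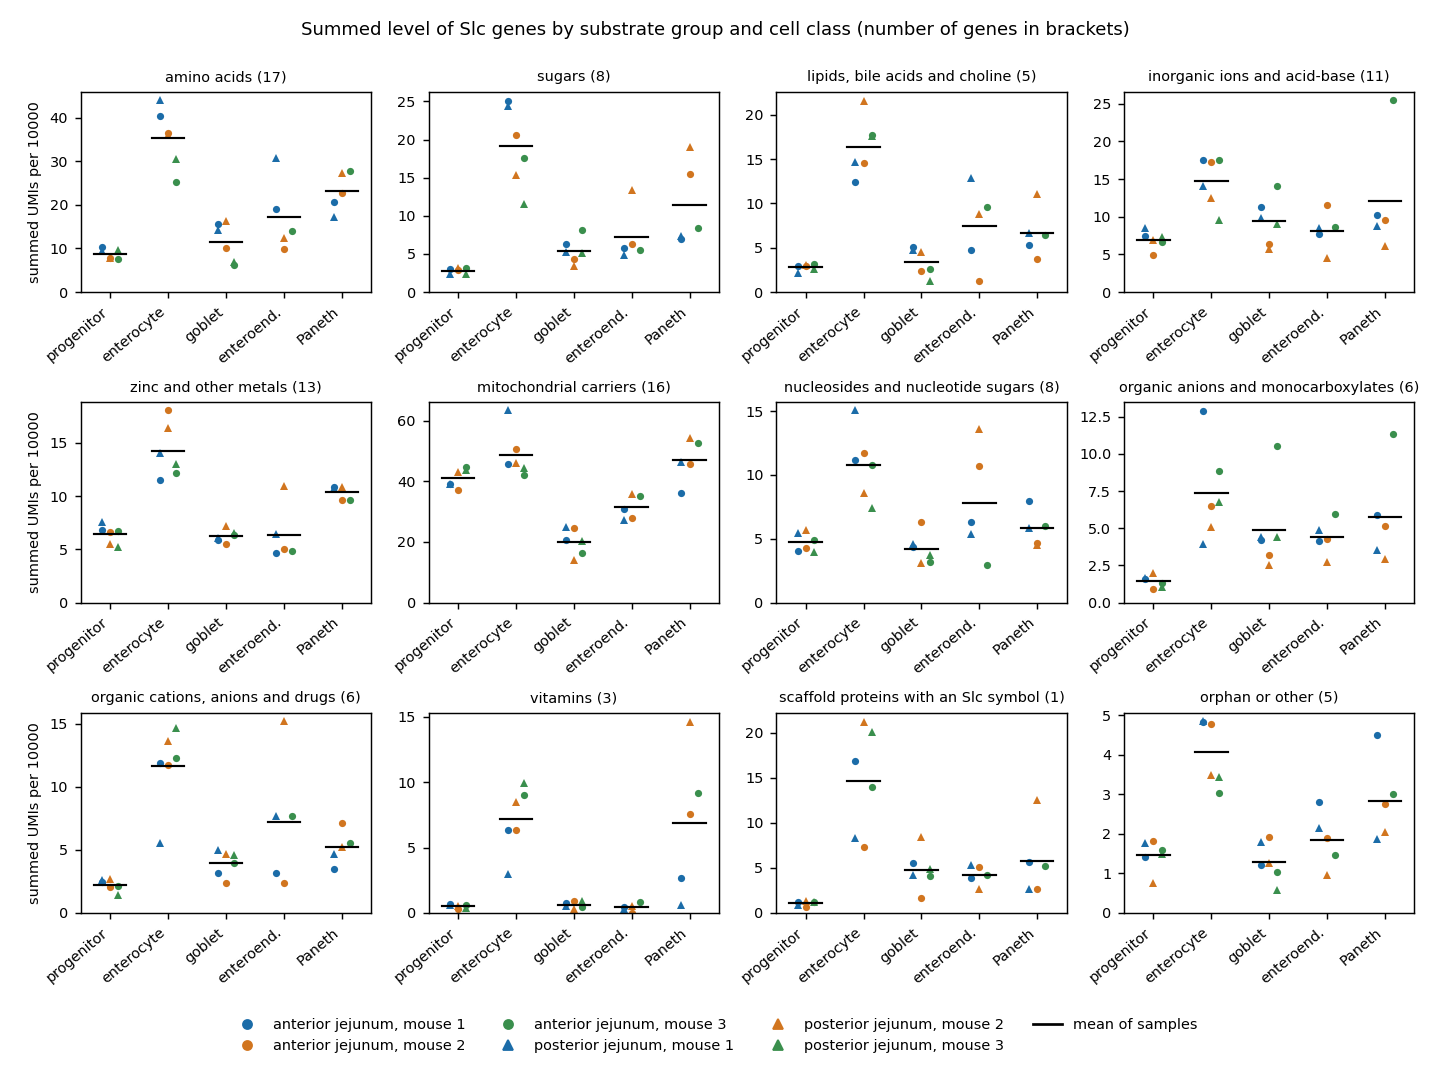
Summed CP10K (y axis) of each substrate group in 5 cell classes (x axis), with 1 point per sample (circles anterior, triangles posterior, colour for mouse) and a bar at the mean of samples. Amino acid, sugar and lipid carriers have their highest means in enterocyte-like cells, vitamin carriers overlap between enterocyte-like (3.00 to 9.90 CP10K) and Paneth-like cells (0.578 to 14.6), and mitochondrial carriers stand at 48.8 and 41.2 CP10K on average in enterocyte-like and progenitor-like cells.

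Mature absorptive cells were first compared with crypt progenitor-like cells. Of 97 carriers tested, 47 were higher and 4 lower in enterocyte-like cells (limma, Benjamini-Hochberg adjusted p under 0.05), where 16.9% and 19.8% of the 5274 genes tested were called higher and lower. Slc1a1 and Slc35f2 did not pass the filter on low values. The median log2 difference was 1.04 over the carriers and 0.00 over all genes. Each of the 3 vitamin carriers rose, as did 10 of 16 amino acid carriers, 4 of 8 sugar carriers, 6 of 11 ion carriers, 4 of 6 organic anion carriers, 5 of 13 metal carriers and 4 of 4 orphan carriers. Mitochondrial carriers rose in 5 of 16, nucleoside and nucleotide sugar carriers in 2 of 8, lipid carriers in 2 of 5 and organic cation carriers in 1 of 6. Of the 4 orphan calls, 0 held when each sample was left out in turn, and of the 5 metal calls 2 held. The 4 that fell were amino acid carriers Slc7a1 and Slc1a5, the ion carrier Slc12a2 and Slc35b2, which carries the sulfate donor PAPS into the Golgi (-1.28 ± 0.37, limma adjusted p = 0.00786, lost in 2 settings).

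**Figure D2:**
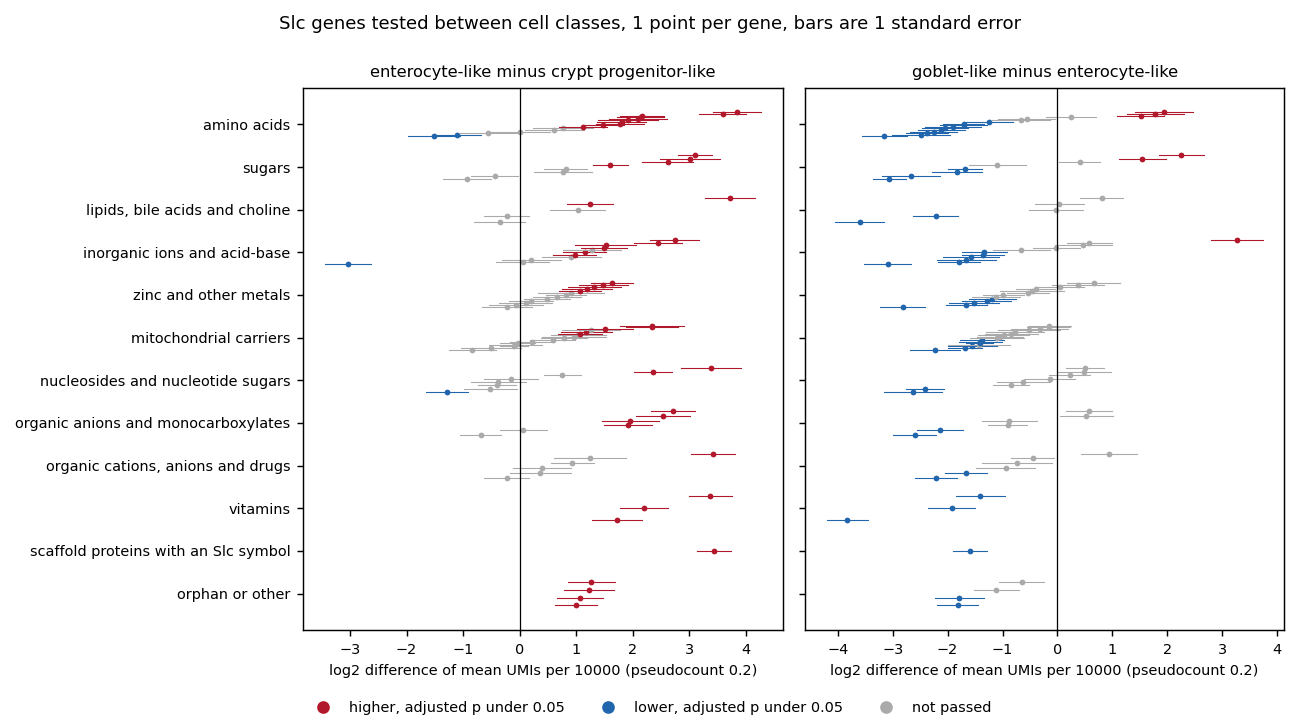
Log2 difference of mean CP10K (x axis, pseudocount 0.2) for each carrier tested, with 1 point per gene and bars of 1 standard error, coloured by whether the gene passed the test. Most called genes lie to the right for enterocyte-like minus progenitor-like cells (47 of 51) and to the left for goblet-like minus enterocyte-like cells (45 of 51).

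Among sugar carriers, Slc5a1 had the highest level. It encodes SGLT1, the sodium-coupled glucose and galactose carrier of the brush border (chr5:33104219-33162870, plus strand, GRCm38). Its level was 7.86 at the lowest, 12.9 at the median and 14.8 CP10K at the highest of the enterocyte-like samples, against 0.869, 1.22 and 1.82 in progenitor-like cells. The lowest enterocyte-like sample lay above the highest progenitor-like sample, and the log2 difference was 3.11 ± 0.31 (SE, limma adjusted p = 5.85e-09). The fructose carrier Slc2a5 was far less abundant, at 0.370, 0.503 and 1.76 CP10K in enterocyte-like cells and 0, 0.0885 and 0.260 in progenitor-like cells, without overlap, and rose by 1.61 ± 0.31 (adjusted p = 0.00017). Slc5a4b, of the SGLT3 glucose sensors, rose by 3.02 ± 0.53 (adjusted p = 4.53e-05), with enterocyte-like samples from 0.490 to 6.17 CP10K. Its reads may be shared with the close copy Slc5a4a. Slc37a1 and Slc37a4, glucose-6-phosphate carriers of the endoplasmic reticulum, had log2 differences of 0.82 and 0.77 and did not pass.

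Several apical amino acid carriers rose. Slc6a19, the sodium-coupled neutral amino acid carrier of the brush border (chr13:73679745-73704865, minus strand), stood at 4.26, 7.07 and 9.37 CP10K in enterocyte-like cells and at 0.0880, 0.352 and 0.833 in progenitor-like cells. The samples of the classes did not overlap, and the log2 difference was 3.59 ± 0.41 (adjusted p = 8.77e-08). Slc3a1 and Slc7a9 encode the heavy and light subunits of the apical exchanger for cystine and dibasic amino acids. Slc3a1 (chr17:85028376-85064236, plus strand) stood at 1.15, 2.07 and 2.20 CP10K against 0.130, 0.211 and 0.790, a log2 difference of 2.09 ± 0.51 (adjusted p = 0.00191). Slc7a9 (chr7:35448796-35466036, plus strand) stood at 0.719, 1.72 and 2.27 against 0.0464, 0.201 and 0.324, a difference of 2.18 ± 0.39 (adjusted p = 6.51e-05). Both subunits were thus higher in each of 6 samples. The imino acid carrier Slc6a20a rose by 2.14 ± 0.42 (adjusted p = 0.000194), although its reads may be shared with Slc6a20b. Slc36a1, a proton-coupled carrier of small amino acids, rose by 1.78 ± 0.42 (adjusted p = 0.00152).

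Several basolateral amino acid carriers rose as well. Slc43a2, which lets neutral amino acids out of the cell (chr11:75531694-75577575, plus strand), had the largest difference of all the carriers at 3.85 ± 0.43 (adjusted p = 5.34e-08), with 3.72, 7.24 and 10.8 CP10K in enterocyte-like and 0.174, 0.238 and 0.463 in progenitor-like cells. Slc3a2, the heavy chain shared by several exchangers, stood at 3.13, 4.30 and 8.67 against 0.984, 1.48 and 2.19, a difference of 1.48 ± 0.37 (adjusted p = 0.00262). Its light chain Slc7a7, which exports dibasic amino acids, rose by 1.81 ± 0.43 (adjusted p = 0.00147). Slc16a10, for aromatic amino acids, rose by 1.93 ± 0.53 (adjusted p = 0.00522). Slc7a8, another light chain, had a difference of 1.12 (adjusted p = 0.039), a call lost in 10 alternative settings. Without mouse 1, the calls for Slc3a2 (adjusted p = 0.0750) and Slc16a10 (adjusted p = 0.0633) were lost.

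Lower in enterocyte-like cells were Slc7a1, Slc1a5 and Slc12a2 beside Slc35b2. Within enterocyte-like cells Slc7a1, Slc1a5 and Slc35b2 lay under the filter of 0.2 CP10K. They were tested because levels in other classes raised their mean, so the filter favoured the direction found. With no filter on low values, 52 carriers were called, among them the 51 of the main analysis. Slc7a1, for cationic amino acids, stood at 0.167, 0.749 and 1.37 CP10K in progenitor-like cells and at 0, 0.0489 and 0.477 in enterocyte-like cells, and fell by 1.52 ± 0.46 on the log2 scale (adjusted p = 0.0102). The ranges overlapped, and the call was lost without the anterior sample of mouse 1 (adjusted p = 0.0540) or the posterior sample of mouse 3 (adjusted p = 0.0554). Slc1a5, the glutamine carrier ASCT2, fell by 1.11 ± 0.43 (adjusted p = 0.0448), lost in 9 settings. Slc12a2, the sodium-potassium-chloride cotransporter of secretory cells, showed the clearest fall. It stood at 2.65, 3.79 and 4.97 CP10K in progenitor-like cells and at 0.0799, 0.272 and 0.605 in enterocyte-like cells, a drop with no overlap, with a log2 difference of -3.03 ± 0.41 (adjusted p = 1.12e-06).

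**Figure D3:**
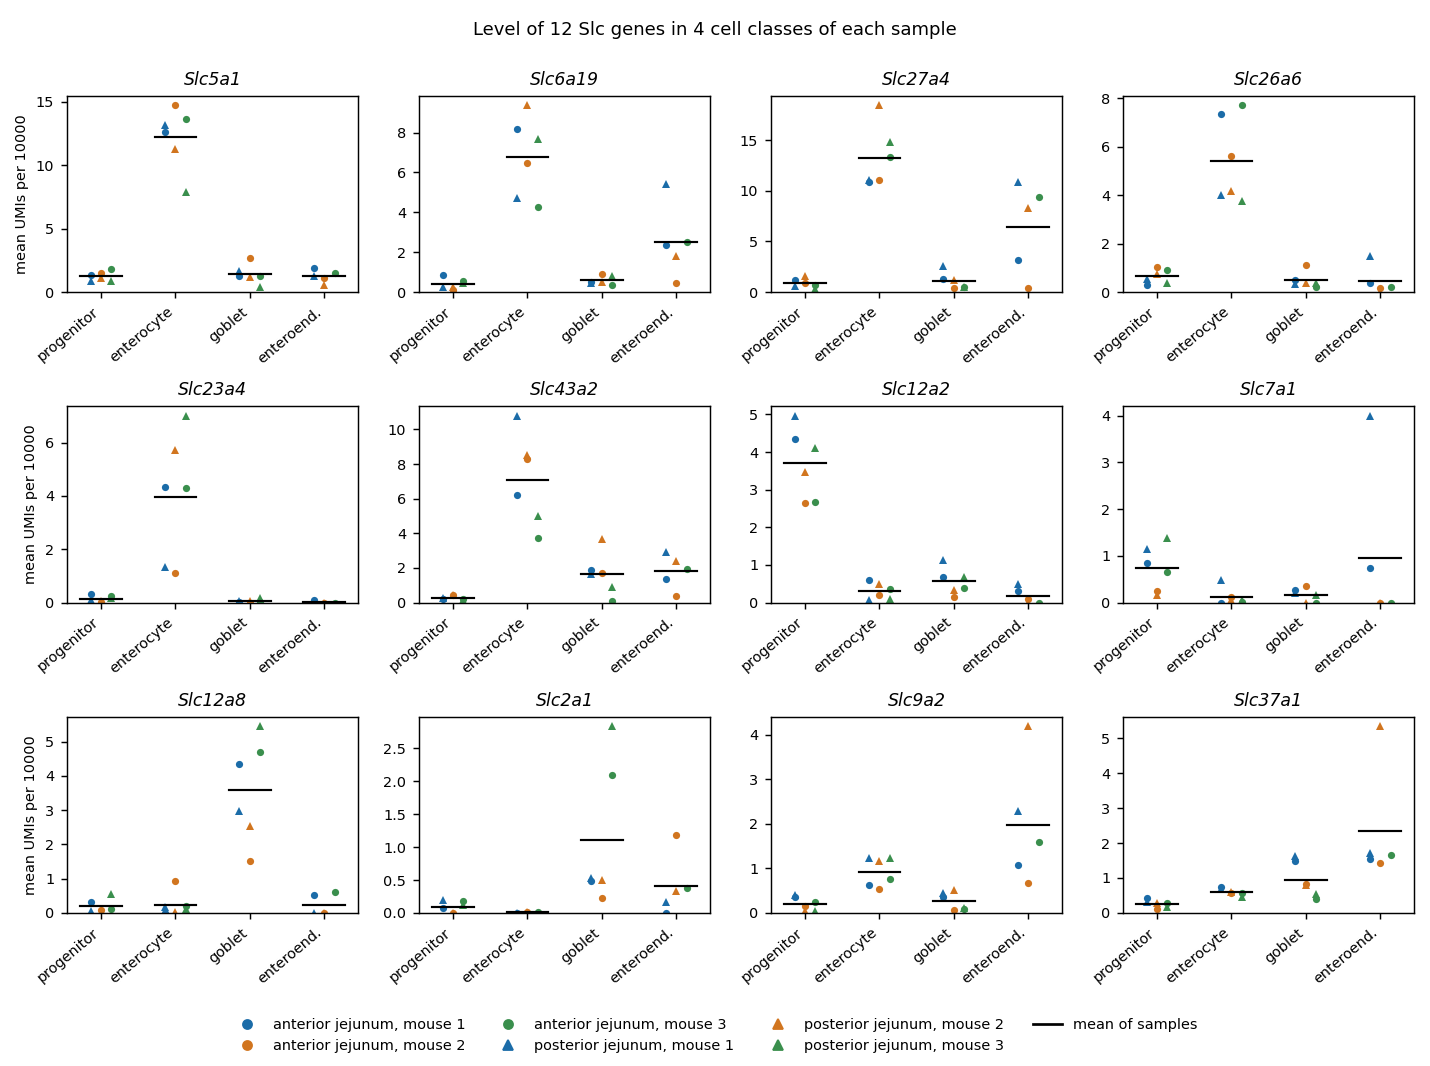
Mean CP10K (y axis) of 12 carriers in 4 cell classes (x axis), with 1 point per sample and a bar at the mean of samples. Slc5a1 is separated upwards in enterocyte-like cells (7.86 to 14.8 CP10K), Slc27a4 overlaps there with enteroendocrine-like cells, and Slc12a2 is separated in progenitor-like cells (2.65 to 4.97 CP10K) and Slc12a8 in goblet-like cells (1.51 to 5.45 CP10K).

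Of the 11 ion carriers, 6 rose and 1 fell. Slc26a6, an apical anion exchanger for chloride, bicarbonate and oxalate, stood at 3.74, 4.88 and 7.71 CP10K in enterocyte-like and 0.306, 0.647 and 1.03 in progenitor-like cells, and rose by 2.75 ± 0.43 (adjusted p = 1.08e-05). Slc26a3, the chloride-bicarbonate exchanger, had a difference of 1.16 ± 0.38 (adjusted p = 0.0184), lost in 3 settings. The sodium-proton exchanger Slc9a2 rose by 1.49 ± 0.41 (adjusted p = 0.00481), and the sulfate carrier Slc26a2 by 2.45 ± 0.43 (adjusted p = 4.93e-05). The basolateral sodium bicarbonate cotransporter Slc4a4 had a difference of 0.98 ± 0.38 (adjusted p = 0.0465), lost in 10 settings. Slc9a3r1, the scaffold (chr11:115163341-115181181, plus strand), stood at 7.34, 15.4 and 21.2 CP10K against 0.682, 1.22 and 1.3, and its difference of 3.44 ± 0.31 had the smallest adjusted p among the 99 genes (1.22e-09).

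Some carriers of lipids and small metabolites and the 3 vitamin carriers rose as well. Slc27a4, the fatty acid transport protein FATP4 (chr2:29802634-29817522, plus strand), stood at 10.9, 12.2 and 18.5 CP10K against 0.354, 0.770 and 1.57, a difference of 3.72 ± 0.44 (adjusted p = 1.74e-07). Slc27a2, its family member with acyl-CoA synthetase activity, had a difference of 1.24 (adjusted p = 0.0166), lost in 7 settings. Slc23a4, a member of the ascorbate and nucleobase carrier family (chr6:34945278-34988404, minus strand), stood at 1.12, 4.32 and 7.01 against 0.0130, 0.137 and 0.332, a difference of 3.38 ± 0.38 (adjusted p = 6.43e-08). The proton-coupled folate carrier Slc46a1 was scarce, at 0.0881, 0.396 and 3.34 CP10K with overlap, and rose by 1.72 ± 0.44 (adjusted p = 0.00307). The riboflavin carrier Slc52a2 rose by 2.20 ± 0.43 (adjusted p = 0.000169). Slc6a8, which takes up creatine, stood at 3.79, 8.14 and 12.0 CP10K against 0.258, 0.603 and 0.733, a difference of 3.43 ± 0.39 (adjusted p = 7.65e-08). The nucleotide sugar family member Slc35c2 rose by 3.39 ± 0.53 (adjusted p = 9.64e-06), the nucleoside carrier Slc28a1 by 2.36 ± 0.34 (adjusted p = 3.73e-06) and the dicarboxylate carrier Slc13a2 by 2.72 ± 0.39 (adjusted p = 2.7e-06).

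Metal and mitochondrial carriers were mixed. Slc39a4, the apical zinc importer ZIP4, stood at 0.590, 3.66 and 5.45 CP10K in enterocyte-like cells and 0.475, 0.968 and 1.03 in progenitor-like cells, where only the lowest enterocyte-like sample reached into the other range, and rose by 1.48 ± 0.44 (adjusted p = 0.00895). The basolateral zinc importer Slc39a5 stood at 1.31, 2.54 and 4.67 against 1.17, 1.77 and 2.59 (log2 difference 0.48, adjusted p = 0.369). The ferrous iron carrier Slc11a2 was near the filter in both classes (medians 0.278 and 0.153 CP10K, adjusted p = 0.715). The copper importer Slc31a1 had a difference of 1.07 (adjusted p = 0.0254), lost in 8 settings. Slc25a5, the adenine nucleotide translocator ANT2, was the most abundant of the carriers in both classes, at 11.6, 17.4 and 26.8 CP10K in enterocyte-like and 13.1, 16.6 and 21.9 in progenitor-like cells (log2 difference -0.03 ± 0.31, adjusted p = 0.951). The phosphate carrier Slc25a3 likewise overlapped (-0.10 ± 0.25, adjusted p = 0.778), whereas the glutamate carrier Slc25a22 rose by 2.34 ± 0.57 (adjusted p = 0.00186). Reads of Slc25a5 and Slc25a3 may be shared with processed pseudogenes.

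Of 46 other transport genes listed, 33 were tested, and 18 rose and 5 fell. The export pump Abcc2 rose by 3.97, the sterol half-transporter Abcg5 by 3.79 and the sterol importer Npc1l1 by 3.24. Those that fell included the potassium channel Kcnn4 (-2.51), the potassium channel Kcnq1 (-2.27) and the chloride channel Cftr (-1.56). When UMI totals were taken without ribosomal protein genes and Malat1, 36 carriers were higher and 8 lower, 40 of the calls were shared with the main analysis, and the median of all genes moved to -0.26. Leaving out each sample in turn, 32 of the higher and 2 of the lower calls held in each fit that tested the gene, and without both samples of mouse 1 the 51 calls became 32. The classes were formed from other genes of the same cells, which the p-values do not account for.

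Goblet-like cells were then compared with enterocyte-like cells. Here 6 carriers were higher and 45 lower of 97 tested, where 3.85% and 15.9% of all genes were called higher and lower, and the median log2 difference was -1.10 over the carriers and -0.33 over all genes. Amino acid carriers fell in 10 and rose in 3 of 16, sugar carriers fell in 4 and rose in 2 of 8, ion carriers fell in 6 and rose in 1 of 11, and mitochondrial carriers fell in 6 of 16. Each of the 3 vitamin carriers fell, as did 5 of 13 metal carriers.

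The largest gain in goblet-like cells was that of Slc12a8 (chr16:33517328-33664135, plus strand), a cation-chloride cotransporter family member whose substrate is disputed. It stood at 1.51, 3.67 and 5.45 CP10K in goblet-like cells and at 0, 0.140 and 0.940 in enterocyte-like cells. The samples did not overlap, and the log2 difference was 3.27 ± 0.47 (adjusted p = 7.37e-06). Slc2a1, the widespread glucose carrier GLUT1, stood at 0.222, 0.511 and 2.84 CP10K against 0, 0.00880 and 0.0221, and rose by 2.26 ± 0.42 (adjusted p = 0.000184). Slc6a7, a proline carrier known from brain, stood at 0, 1.13 and 2.08 against 0, 0 and 0.167, and rose by 1.94 ± 0.54 (adjusted p = 0.00919). It was higher in 4 of 6 samples only, and the call was lost without the anterior sample of mouse 1 (adjusted p = 0.0573). The neutral amino acid carrier Slc38a2 stood at 0.508, 2.13 and 2.74 against 0.0792, 0.408 and 0.636, a difference of 1.78 ± 0.51 (adjusted p = 0.0129). The sugar carrier Slc50a1 stood at 0.387, 0.677 and 1.75 against 0.0473, 0.141 and 0.198, a difference of 1.55 ± 0.43 (adjusted p = 0.00992). Slc1a5 stood at 0.237, 0.610 and 1.31 against 0.00798, 0.0632 and 0.389, a difference of 1.51 ± 0.43 (adjusted p = 0.0122). Slc38a2, Slc50a1 and Slc1a5 were higher in each of 6 samples. Within enterocyte-like cells Slc2a1, Slc6a7, Slc50a1 and Slc1a5 lay under the filter of 0.2 CP10K. They were tested because levels in other classes, goblet-like cells among them, raised their mean, so the filter favoured the direction found. With no filter on low values, the same 51 calls were made. Slc50a1 lost its call without the anterior sample of mouse 1 (adjusted p = 0.0593). With both samples of mouse 1 left out, 2 carriers were higher and 34 lower, and the calls for Slc38a2 (adjusted p = 0.0681), Slc50a1 (adjusted p = 0.15) and Slc1a5 (adjusted p = 0.0692) were lost.

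The largest falls in goblet-like cells included those of Slc23a4, Slc27a4, Slc6a19 and Slc5a1. Slc23a4 stood at 0, 0.0341 and 0.164 CP10K in goblet-like cells and differed by -3.83 ± 0.38 on the log2 scale (adjusted p = 2.11e-08). Slc27a4, at 0.398, 0.839 and 2.57 CP10K, differed by -3.60 ± 0.44 (adjusted p = 7.29e-07). Slc6a19, at 0.332, 0.496 and 0.916, differed by -3.15 ± 0.41 (adjusted p = 1.72e-06), and Slc5a1, at 0.381, 1.29 and 2.66, by -3.06 ± 0.31 (adjusted p = 2.24e-08). None of these 4 overlapped between the classes. Some carriers that had not passed between progenitor-like and enterocyte-like cells were lower in goblet-like cells. Slc39a5, at 0.0317, 0.161 and 0.763 CP10K, differed by -2.82 ± 0.40 (adjusted p = 6.48e-06). Slc25a5, at 3.85, 5.02 and 7.36, differed by -1.68 ± 0.31 (adjusted p = 0.000185), and Slc25a3, at 1.80, 3.83 and 7.15, by -1.42 ± 0.25 (adjusted p = 0.000114). The serotonin carrier Slc6a4 differed by -1.66 ± 0.38 (adjusted p = 0.00182). Levels of Slc26a2 (-0.02, adjusted p = 0.985) and of Slc17a4, an organic anion carrier at 1.14 to 10.2 CP10K in goblet-like cells (0.53, adjusted p = 0.523), overlapped with those of enterocyte-like cells. Of 33 other transport genes, 2 rose, the calcium pump Atp2a3 (4.37) and hexokinase Hk2 (2.61), and 18 fell.

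Enteroendocrine-like cells were set against the mean of the other 3 classes. Here 5 carriers were higher and 15 lower of 97, against 5.67% and 10.8% of all genes. These values rest on 5 samples, because the posterior sample of mouse 3 held 4 such cells, and a minimum of 10 cells left only the samples of mouse 1, with 2 carriers higher and 2 lower. Slc16a5, a monocarboxylate family carrier, stood at 0.570, 1.84 and 3.11 CP10K, above the mean log2 level of the other classes in 5 of 5 samples, with a difference of 2.00 ± 0.38 (adjusted p = 0.000692). Its enterocyte-like samples, from 0.369 to 2.06, overlapped with these. The sodium-proton exchanger Slc9a2 stood at 0.679, 1.59 and 4.20 (1.66 ± 0.36, adjusted p = 0.00258), and its enterocyte-like samples, from 0.548 to 1.24, overlapped as well. Slc37a1 stood at 1.41, 1.65 and 5.35, with every sample above the highest enterocyte-like sample of 0.738, while the goblet-like samples reached up to 1.63 and overlapped (1.54 ± 0.34, adjusted p = 0.00267). Slc5a4b (1.62, adjusted p = 0.019) and the potassium-chloride cotransporter Slc12a7 (1.45, adjusted p = 0.0314) were also higher, calls lost in 6 and 8 settings. Enterocyte-like samples of Slc5a4b ranged from 0.490 to 6.17 CP10K.

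Among the carriers lower in enteroendocrine-like cells, Slc4a4 was at 0, 0 and 0.0485 CP10K (-1.93 ± 0.34, adjusted p = 0.000343). Slc39a4, at 0, 0.206 and 0.679, differed by -1.82 ± 0.39 (adjusted p = 0.00232), and Slc25a15, the mitochondrial ornithine carrier, at 0, 0.243 and 0.383, by -1.74 ± 0.35 (adjusted p = 0.00115). Slc12a2 differed by -1.69 ± 0.36 (adjusted p = 0.0022), Slc26a6 by -1.57 ± 0.38 (adjusted p = 0.0061) and Slc5a1 by -1.24 ± 0.27 (adjusted p = 0.00289). In the mean of the other classes, Slc12a2 was raised by progenitor-like cells, and Slc26a6 and Slc5a1 by enterocyte-like cells. A lower value than this mean need not be lower than in each class, and differences from single classes were not tested. The calls for Slc25a15 and Slc4a4 held under each of the 19 alternatives that tested them, which left out the minimum of 1 CP10K, and the other 18 were lost under at least 1. Slc27a4 varied widely, from 0.437 to 10.9 CP10K with a median of 8.27, and did not pass (adjusted p = 0.154). Of 33 other transport genes, 4 were higher and 9 lower.

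Position along the villus was approximated in enterocyte-like cells by a score from landmark genes of the villus top and bottom, none of them a carrier, and the cells of each sample were divided into lower, middle and upper bins of equal size. The carriers' total hardly moved, at 2.04%, 2.06% and 2.03% of UMIs. Of 90 carriers tested, 3 were higher and 0 were lower in the upper bin (limma), where 1.13% and 2.02% of 4695 genes were called. At an unadjusted p under 0.05 were 20 of the 90 carriers and 850 of the 4695 genes. The median log2 difference was -0.37 over the carriers and -0.17 over all genes. The other 9 carriers did not pass the filter.

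Slc23a4 stood at 0, 1.09 and 2.19 CP10K in the lower bin, at 0, 2.24 and 4.95 in the middle bin and at 2.13, 7.67 and 17.4 in the upper bin. The lower and upper ranges barely met, and the log2 difference was 2.72 ± 0.45 (adjusted p = 0.000605). Slc6a8 stood at 1.96, 3.99 and 12.5 in the lower and at 5.36, 12.9 and 15.5 in the upper bin, a difference of 1.34 ± 0.32 (adjusted p = 0.0157). Slc9a3r1 stood at 4.91, 9.58 and 19.8 in the lower and at 9.63, 22.5 and 28.3 in the upper bin, a difference of 0.96 ± 0.26 (adjusted p = 0.0355). The ranges of the last pair overlapped between bins, but each of the 3 genes was higher in the upper bin in 6 of 6 samples. With the mouse in place of the sample as replicate block, Slc23a4 kept its call, while Slc6a8 (adjusted p = 0.0687) and Slc9a3r1 (adjusted p = 0.183) lost it. With no block, 0 of the 3 calls remained.

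Both of those calls depended on single samples, and on the bins or the landmark genes. Slc6a8 lost its call with 2 bins in place of 3 (0.76, adjusted p = 0.12). Slc9a3r1 lost its call when the landmarks Apoa1, Apoa4 and Apoc3 were left out of the score (0.93, adjusted p = 0.13). The Slc6a8 call was also lost without the anterior sample of mouse 2 (adjusted p = 0.0591) or mouse 3 (adjusted p = 0.0742). That of Slc9a3r1 was lost without the anterior sample of mouse 2 (0.0757) or mouse 3 (0.126), or the posterior sample of mouse 2 (0.0702) or mouse 3 (0.164), given as adjusted p. Slc23a4 is among the leading genes of 1 of the 3 enterocyte-like clusters, although it was not used to form them. Several absorptive carriers had differences that did not pass. Slc27a4 stood at 8.38, 10.9 and 12.7 in the lower and 12.8, 15.7 and 26.9 CP10K in the upper bin and was higher in the upper bin in 6 of 6 samples (0.63, adjusted p = 0.169). Slc3a2 stood at 3.59, 5.89 and 14.7 in the lower and 1.58, 2.56 and 5.12 in the upper bin (-1.07, adjusted p = 0.0677). Slc5a1 (-0.51, adjusted p = 0.296) and Slc6a19 (0.31, adjusted p = 0.704) overlapped between bins.

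**Figure D4:**
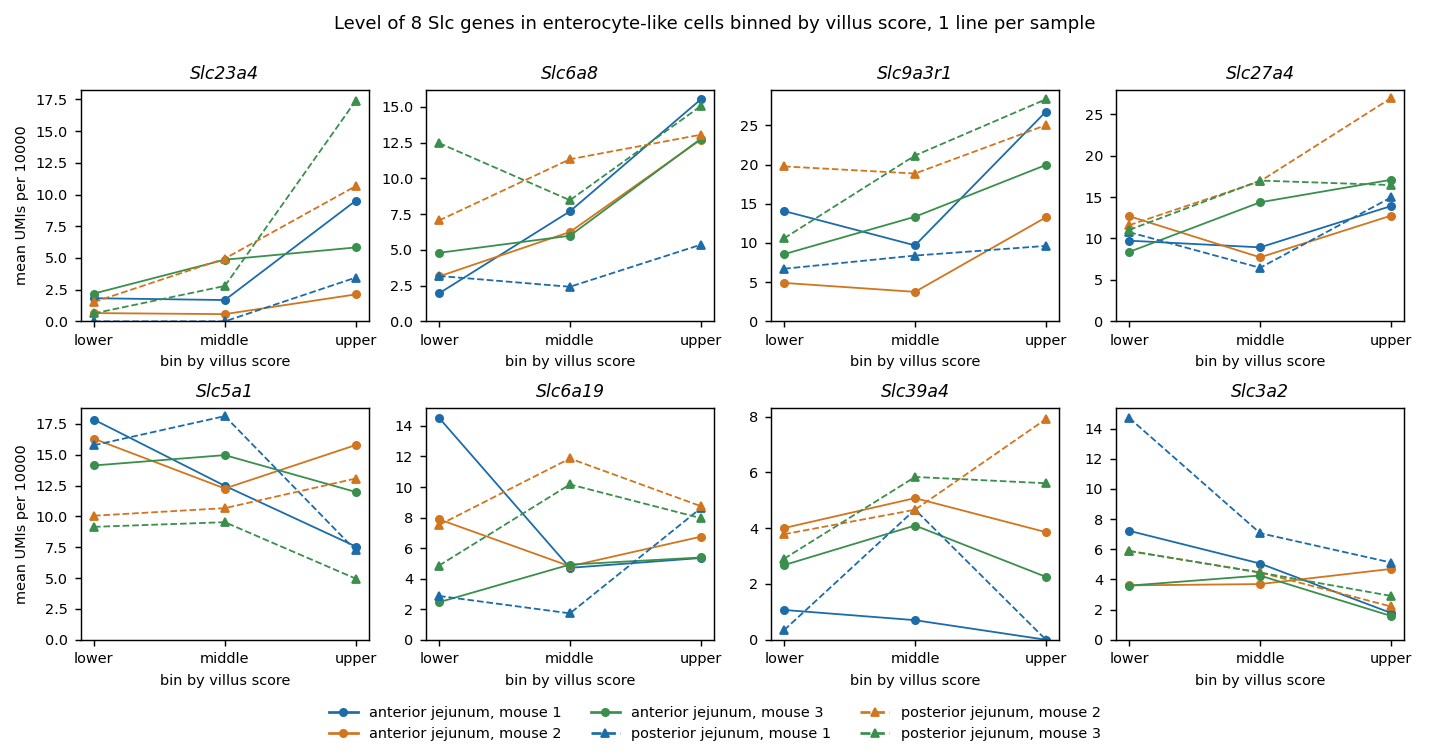
Mean CP10K (y axis) of 8 carriers in enterocyte-like cells of the lower, middle and upper bins by villus score (x axis), with 1 line per sample, solid for anterior and dashed for posterior. Slc23a4 climbs to 2.13 to 17.4 CP10K in the upper bin in 6 of 6 samples, whereas the lines for Slc5a1 and Slc6a19 cross.

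The summed vitamin group went from 4.04 ± 2.21 CP10K in the lower to 11.1 ± 4.91 in the upper bin (SD, n = 6). Its most abundant member is Slc23a4, whose substrate is uncertain. Lipid carriers went from 14.6 ± 1.62 to 19.7 ± 5.72, amino acid carriers from 39.7 ± 11.1 to 31.2 ± 10.8 and sugar carriers from 20.8 ± 7.20 to 16.3 ± 6.12. Of 28 other transport genes tested, 0 rose and 2 fell, the ferritin subunit Fth1 (-1.07, adjusted p = 0.00211) and the mitochondrial pyruvate carrier subunit Mpc2 (-1.78, adjusted p = 0.0183). Depth moved with the bins. The median UMIs per cell was 3163 to 12875.5 in the lower and 1263.5 to 8777 in the upper bin, and the upper bin was above the lower in 0 of 6 samples. The ribosomal protein share was lower and Malat1 higher in the upper bin in 6 of 6 samples, and their part in the result was not tested. In cells with at least 3000 UMIs, 7 carriers were called. No carrier passed the test of a villus difference that depended on region (0% of all genes called), with 4 carriers and 243 of all genes at an unadjusted p under 0.05.

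Anterior and posterior jejunum were compared in enterocyte-like cells with 3 mice in each region. No carrier of 90 passed (limma), and 0% of the 4692 genes tested did. At an unadjusted p under 0.05 were 6 of the carriers and 294 of all genes tested. With the mouse as replicate block 0 passed as well, with 8 at an unadjusted p under 0.05. In 13 of 90 carriers (14.4%) the regions' samples did not overlap, 8 higher in the anterior and 5 in the posterior jejunum, against 12.2% of all genes. The samples held 30, 104 and 160 anterior and 13, 213 and 157 posterior enterocyte-like cells for mice 1 to 3. Their clusters differed, with 169, 12 and 113 anterior and 200, 175 and 8 posterior cells in clusters 2, 5 and 8.

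The imino acid carrier Slc6a20a had the smallest p. Its level was 4.88, 2.43 and 1.89 CP10K in the anterior samples of mice 1 to 3 and 0.644, 0.794 and 0.759 in the posterior samples, with every anterior sample above every posterior one (log2 difference 1.70 ± 0.46, adjusted p = 0.662). Slc17a9, a vesicular nucleotide carrier, had anterior levels of 3.30, 2.43 and 1.15 CP10K and posterior levels of 0.405, 0.934 and 0.654, again without overlap (1.47 ± 0.50, adjusted p = 0.718). Slc1a1, an acidic amino acid carrier, ran the other way, with anterior levels of 0.0363, 0.0386 and 0.0750 and posterior levels of 0.937, 0.144 and 0.426 (-1.33, adjusted p = 0.725). For Slc26a3 the anterior levels were 1.28, 2.36 and 0.732 and the posterior levels 0.812, 0.228 and 0.320, so that the lowest anterior value lay below the highest posterior one (1.32, adjusted p = 0.761). These 4 are orders of values and not calls.

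**Figure D5:**
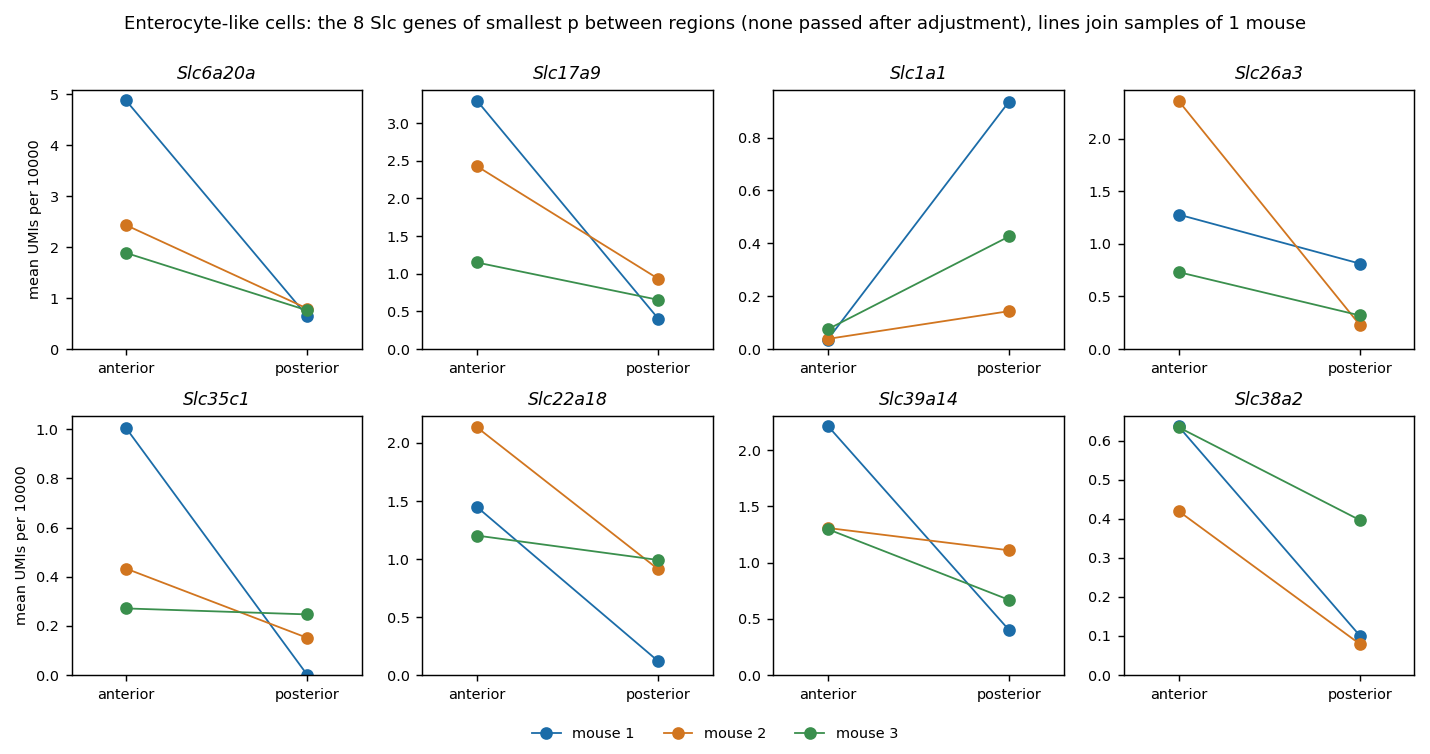
Mean CP10K (y axis) of the 8 carriers of smallest p between anterior and posterior jejunum (x axis) in enterocyte-like cells, with lines joining samples of the same mouse. Slc6a20a lies at 1.89 to 4.88 CP10K in the anterior and 0.644 to 0.794 in the posterior samples, and none of the 8 passed after adjustment.

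Goblet-like cells gave the same count. Of 77 carriers tested, 0 passed (limma, with 0 carriers and 139 of all genes at an unadjusted p under 0.05), and 1 of 4268 genes did (0.0234%). In 4 carriers the regions did not overlap, against 7.05% of all genes. Among these, Slc26a2 had anterior levels of 2.99, 2.79 and 2.67 CP10K and posterior levels from 0.896 to 1.78. Slc7a8 had anterior levels of 0.712, 0.0389 and 0.350 and posterior levels of 0.957, 1.08 and 0.862.

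Paneth-like cells, present in 5 samples with a median of 1099.5 UMIs, entered no test. Their levels of Slc5a1 (3.22, 8.46 and 15.6 CP10K) and of Slc26a6 (1.19, 1.69 and 24.8) varied widely between samples. These cells also held 402 to 667 CP10K of enterocyte markers and 514 to 711 of goblet markers, against 55.6 to 616 of their own 8 markers, and the part of enterocyte RNA in the carriers' levels was not tested.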

How the data were processed

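Deposited values were log2 expression per gene and cell, 1 table per region, which the authors made with UMI-tools 1.0.0, cutadapt 1.18 and STAR 2.6.1b on GRCm38 and with R 3.5.1, per the submitters' processing notes. Each deposited log2 value could be written as the log2 of 1 plus scaled UMIs, shifted by offsets for pools of cells and 2 covariates fitted gene by gene, and whole UMI counts were recovered at a tolerance of 0.01 for 100.0% of values (base e 1.08% and 1.29%). Recovery was checked on simulated data of 1500 genes and 360 cells.

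Cells were clustered without Slc genes (scanpy 1.11.5, 1500 variable genes, 25 components, 15 neighbours, resolution 1) into 10 clusters, and these were named from marker lists. No doublet caller was run. Class means per sample of at least 5 cells, as log2(CP10K + 0.2), were tested with limma 3.58.1 (trend) in R 4.3.3 for genes of mean at least 0.2 CP10K, with the sample as block for classes and villus bins and no block for regions, and Benjamini-Hochberg adjustment over all genes, threshold 0.05. A log2 difference on this scale understates changes of low genes. In simulated data for enterocyte-like minus progenitor-like cells, 99% of 100 genes changed 4-fold and 100% of 100 changed 8-fold were called, and 2 of 5078 unchanged genes were. Unlike the data, the simulation had the same depth per cell in each class, no sample effect and no shift in RNA composition. Its rates therefore need not hold for the data. The villus score used 8 of 12 upper and 10 of 12 lower landmarks, in cells with at least 10 landmark UMIs.

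The same animal gave both regions. Deviations of same-mouse samples had correlations of 0.03, -0.08 and 0.16 in enterocyte-like and 0.28, 0.06 and 0.07 in goblet-like cells. Samples of different mice had correlations from -0.19 to 0.14 in enterocyte-like and from -0.15 to 0.05 in goblet-like cells. The carriers and gene lists were chosen with earlier results of these data known. Named genes are the 3 most abundant of each substrate group, the called carriers of largest change, or of smallest p where none was called, and a list of absorptive and secretory carriers. Of the 25 on that list, 17 were in both tables. Slc13a2, Slc25a22, Slc28a1 and Slc36a1 were named after their values were seen. Alternatives were other pseudocounts, filters, blocks, bins and cell minimums, and samples left out.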

Additional observations from a re-analysis of the deposited data

Results flagged for a closer look

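The choline carrier Slc44a1 ordered the regions in opposite ways in the 2 largest cell classes. In enterocyte-like cells its anterior levels were 0.310, 0.681 and 0.617 CP10K and its posterior levels 1.23, 0.973 and 1.17 for mice 1 to 3, a difference of means of -0.588. In goblet-like cells its anterior levels were 1.36, 1.27 and 0.568 and its posterior levels 0.839, 0.947 and 0.256, a difference of 0.385. Each of the 3 mice moved one way in enterocyte-like and the other way in goblet-like cells. Slc44a1 passed the region test in neither class. It was the only carrier found when those of the 63 named carriers tested in both classes were searched for such an opposite order. The same search was not made over all genes. The difference between the classes was not tested.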

How the results depend on the processing

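With a minimum mean of 1 CP10K, which tested 30 of the carriers between classes and 53 between villus bins, 19 carriers were called between enterocyte-like and progenitor-like cells in place of 51, 19 between goblet-like and enterocyte-like cells in place of 51, 8 for enteroendocrine-like cells in place of 20, and 6 between villus bins in place of 3. Without both samples of mouse 1, 32 were called between enterocyte-like and progenitor-like cells. With at least 10 cells per class, 4 were called for enteroendocrine-like cells. Between villus bins, 8 were called on summed UMIs and 0 with no block. Alternatives chosen after seeing the data gave 7 in cells with at least 3000 UMIs and 10 with the unnamed Reg3g-led cluster counted as enterocyte-like. The cause was not tested. With the mouse as replicate block, 53, 51 and 22 carriers were called for the 3 class comparisons, 1 between villus bins and 0 between regions in either class. The villus difference by region was not fitted with that block. Leaving out 1 sample each gave 35 to 45, 43 to 51 and 15 to 21 calls for the class comparisons, 2 to 3 for the bins and 0 for the others. Without anterior replicate 1 the first count was 35. Signs turned for Slc5a4b in enteroendocrine-like cells (-0.17 with at least 10 cells), for Slc37a1 between regions and bins (0.043 with the Reg3g-led cluster), likewise for Slc25a15 (0.49 with 2 bins in place of 3) and for Slc39a11 between regions in goblet-like cells (-0.035 in cells with at least 3000 UMIs), and only the first of these had been called. Of the calls, 30 of 51, 32 of 51, 2 of 20 and 0 of 3 were kept under each alternative that tested the gene, in the order of the comparisons above. A setting whose filter removed a gene was not counted for it. Posterior mouse 1 gave 4 or 5 cells per villus bin.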

Other observations

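Carrier levels of the 233 cells that took no name are given here without a test, and the carriers were picked after their values were seen. A cluster of 38 cells led by the tuft cell gene Sh2d6, with values from 3 samples, had a mean level of 4.53 CP10K of the taurine carrier Slc6a6, 3.87 of the anion exchanger Slc4a2, 3.85 of the mitochondrial carnitine carrier Slc25a20 and 2.62 of the glucose carrier Slc2a1, each the highest mean of any class. The vitamin carriers summed to 0.168 CP10K there. A cluster of 195 cells led by the antimicrobial gene Reg3g held 19.1 CP10K of amino acid carriers, 7.35 of sugar carriers and 0.963 of vitamin carriers on average over 6 samples. Each value lay between those of progenitor-like and enterocyte-like cells. Its mitochondrial carriers summed to 52.6 CP10K, with Slc25a5 at 19.5, 21.1 and 28.1 at the lowest, median and highest sample.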
